A study of Rattus norvegicus with 154 samples.

Results

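DNA repair genes were followed in the lungs of rats exposed to sulfur mustard, bis-(2-chloroethyl) sulfide, a bifunctional alkylating agent that adds to DNA bases and joins the strands. The genes were taken by symbol, not by how they behaved: 36 genes of direct damage reversal, base excision, nucleotide excision, mismatch and double-strand break repair, with replication protein A. Of these, 33 genes had a probe set on the array (39 probe sets of the 15923 measured), and Xpa, Msh6 and Atm had none assigned to them here. The dimmest 30% of probe sets by mean intensity were not tested, which kept 30 of the 36 genes among the 11106 probe sets tested. Brca1, Brca2 and Mre11, with mean intensities of 23.5, 26.2 and 4.82 over all animals, did not pass. Among members, the highest mean just outside the filter was 28.8, for a secondary Ddb2 probe set, and the lowest just inside it was 36.6, for Xrcc6.

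Alkylated DNA is repaired by several routes. The methyltransferase Mgmt takes an alkyl group off guanine directly and is used up in the reaction. In base excision repair a glycosylase removes the damaged base, the nuclease Apex1 cuts the strand, Polb fills the gap and Parp1, a sensor of strand breaks, recruits partners. Nucleotide excision repair cuts out a bulky adduct or one side of a crosslink, and double-strand breaks, which form when replication meets a crosslink, are joined by Prkdc with the Ku proteins Xrcc5 and Xrcc6 or are processed by Mre11, Rad50 and Nbn.

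The lungs came from 77 rats in 25 groups. At 30 min, 1, 3, 6 and 24 h after exposure there were groups given 1, 3 or 6 mg sulfur mustard in isopropyl alcohol, isopropyl alcohol alone, or saline alone. The 3 doses at a time share the same isopropyl alcohol rats. There were 23 groups of 3 rats and 2 groups of 4 (6 mg at 30 min and at 1 h). The labels give no strain, age, sex or route of exposure. Each rat's RNA was hybridised to 2 chips, A and B, and an animal's value here is the mean of both. The values are microarray intensities that the authors had scaled to the same trimmed mean on every array. Array medians ran between 67.7 and 100.1. Lung identity was clear in every animal: the surfactant gene Sftpc ran between 4005 and 17055, and Ager, of alveolar type I cells, between 1837 and 3955. The lung samples were whole tissue, so fewer cells of a type and less RNA per cell cannot be told apart. Intensities of different probe sets are not comparable, so each gene is set only against itself.

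Few repair genes were called after exposure, at shares near those of all probe sets. The calls came at 3 h or later, and at 1 h 6 mg called only 0.198% of all probe sets. They were mostly downward, as were the calls over all probe sets. At 6 mg and 6 h this was not so with each array centred on its median. Prkdc was called most often. Mgmt moved both ways: at 6 mg it fell to 0.591 times the isopropyl alcohol level at 6 h and rose to 2.08 times that level at 24 h. Prkdc, the catalytic subunit of DNA-dependent protein kinase, fell at 3, 6 and 24 h. At 6 h Parp1 and Rad50 were called lower and 1 of the probe sets of Polb higher. With scan days as a block none of these was called (limma adjusted p = 0.0966, 0.198 and 0.332). Rad50 lost its call in 13 alternatives. A gene is called here when limma's adjusted p over all 11106 probe sets was under 0.05, and log2 fold changes are of intensity plus 7. At 6 mg and 6 h, 1 of 30 members was called higher and 4 lower, beside 7.18% of all probe sets higher and 11.1% lower. At 6 mg and 24 h, 1 member was higher and 1 lower, beside 2.72% and 4.02% of all probe sets. At 6 mg and 3 h, 0 members were higher and 1 was lower, beside 3.86% and 9.09% of all probe sets. With 3 mg at 6 h, 0 members were higher and 1 was lower, beside 0.333% and 1.36%. These shares lie near those of the array as a whole. With each array centred on its median, 3 members were higher and 3 lower at 6 mg and 6 h, and all probe sets split into 1015 higher and 1002 lower, against 797 and 1230 as reported. At 3 h that centring gave 666 higher and 637 lower, against 429 and 1010, and Prkdc was not called. At 6 mg the median log2 fold change was -0.03 over the 30 members and -0.05 over all probe sets at 3 h. It was 0.05 and -0.04 at 6 h, and 0.04 and -0.01 at 24 h. Within groups the members' SD ran between 0.12 and 0.55 log2 with a median of 0.20.

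**Figure D1:**
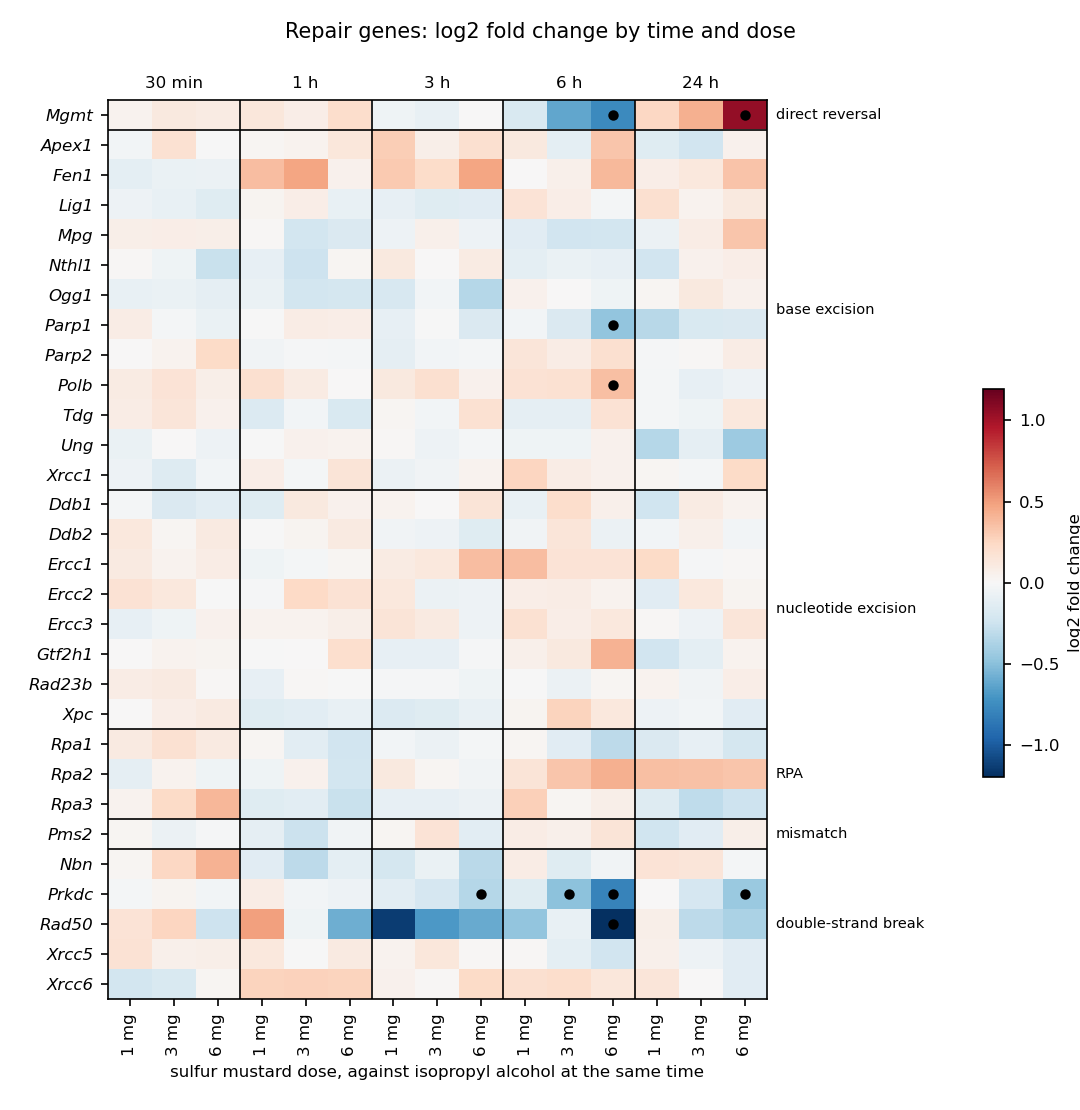
Log2 fold change of the 30 tested repair genes (rows, grouped by route) for each sulfur mustard dose over the time-matched isopropyl alcohol group (columns, low to high dose within each time); colour gives the size and a black dot an adjusted p under 0.05. The 9 dots fall at 3, 6 and 24 h on Mgmt, Parp1, Polb, Prkdc and Rad50, and none falls at 30 min or 1 h.

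The promoter sequences of Mgmt and Parp1, both called lower at 6 h, are shown. Prkdc and Rad50 were also called lower then, but Prkdc had no promoter window here and Rad50 is not shown. At 24 h Mgmt was called higher while Parp1 was not called. The sequences cover 250 bases before to 50 bases after the start of each gene, from RefSeq on assembly GRCr8. They lie at chr1:201140582-201140881 and chr13:94839234-94839533, both on the plus strand. Capitals mark the hexamer GGGCGG or its complement CCGCCC, the core of the GC box.
Mgmt: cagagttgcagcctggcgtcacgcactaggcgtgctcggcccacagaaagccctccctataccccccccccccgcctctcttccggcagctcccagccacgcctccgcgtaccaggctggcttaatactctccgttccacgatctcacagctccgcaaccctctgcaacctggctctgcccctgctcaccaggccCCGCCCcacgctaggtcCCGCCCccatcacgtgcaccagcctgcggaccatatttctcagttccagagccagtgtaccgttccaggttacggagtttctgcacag
Parp1: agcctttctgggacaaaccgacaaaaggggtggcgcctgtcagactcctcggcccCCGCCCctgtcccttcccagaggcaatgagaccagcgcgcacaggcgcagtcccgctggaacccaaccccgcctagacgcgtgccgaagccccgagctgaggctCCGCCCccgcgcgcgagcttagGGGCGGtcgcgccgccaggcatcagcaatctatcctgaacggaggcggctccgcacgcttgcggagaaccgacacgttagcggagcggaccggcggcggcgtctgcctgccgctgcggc
The Mgmt window held 2 GC box cores and the Parp1 window 3, and neither held CCAAT on either strand. GC content was 64.3% for Mgmt and 70.3% for Parp1. A GC box core was found in 33.1% of 33469 promoter windows of the same length and in 20 of the 28 windows that matched members (71.4%). All windows were counted, not a set matched to the members, and no difference between the shares was tested. CCAAT was found in 37.5% of all windows and in 12 of the 28. These are matches of letters and not measured binding sites.

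Mgmt (probe set 1368311_at, gene ID 25332) removes alkyl groups from the O6 position of guanine. At 24 h its intensity was 149, 244 and 176 in the rats given 6 mg and 97.9, 98.9 and 65.7 in those given isopropyl alcohol. Every 6 mg rat lay above every isopropyl alcohol rat, and the saline rats (99.2, 90.2 and 76.9) lay below all of the 6 mg rats too. The log2 fold change was 1.06 ± 0.19 (SE, n = 3 each, limma adjusted p = 5.08e-05). The values at 24 h ran with the dose: 128, 111 and 78.0 at 1 mg, 102, 144 and 109 at 3 mg, then the values above at 6 mg. The trend was 0.17 ± 0.03 log2 per mg (limma adjusted p = 2.37e-05), although the 1 mg and 3 mg groups taken alone did not pass, with log2 fold changes of 0.25 and 0.42.

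At 6 h Mgmt lay on the other side. Its intensity was 37.0, 34.4 and 46.0 in the 6 mg rats, against 84.9, 63.5 and 62.6 in the isopropyl alcohol rats, with no overlap between the groups. The 1 mg rats had 69.5, 58.1 and 58.5, and the 3 mg rats, at 36.9, 45.4 and 46.5, lay close to the 6 mg rats. The log2 fold change at 6 mg was -0.76 ± 0.19 (SE, n = 3 each, limma adjusted p = 0.00221). The difference at 3 mg was -0.62 and did not pass (limma adjusted p = 0.0757). The trend at 6 h was -0.13 ± 0.03 log2 per mg (limma adjusted p = 0.000627). Saline rats at 6 h were spread widely, at 49.2, 107 and 59.5.

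The change of sign was tested directly. The 6 mg effect on Mgmt at 24 h exceeded that at 6 h by 1.81 ± 0.26 on the log2 scale (limma adjusted p = 1.91e-05, 4 groups of 3). Among the 30 members, Mgmt alone was called in this comparison, beside 3.36% of all probe sets. Over all 5 times the size of the 6 mg effect differed for Mgmt (limma F-test, adjusted p = 3.82e-05) and for Prkdc (adjusted p = 0.00216), 2 of 30 members beside 11.4% of all probe sets. Before 6 h the 6 mg rats overlapped the isopropyl alcohol rats: 68.3 to 82.8 against 65.3 to 73.0 at 30 min and 79.2 to 102 against 61.0 to 89.4 at 1 h. At 3 h the 6 mg rats had 74.2 to 99.95 and the isopropyl alcohol rats 71.3 to 91.8. In time order, the 6 mg rats thus overlapped the isopropyl alcohol rats through 3 h, lay below them at 6 h and above them at 24 h.

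**Figure D2:**
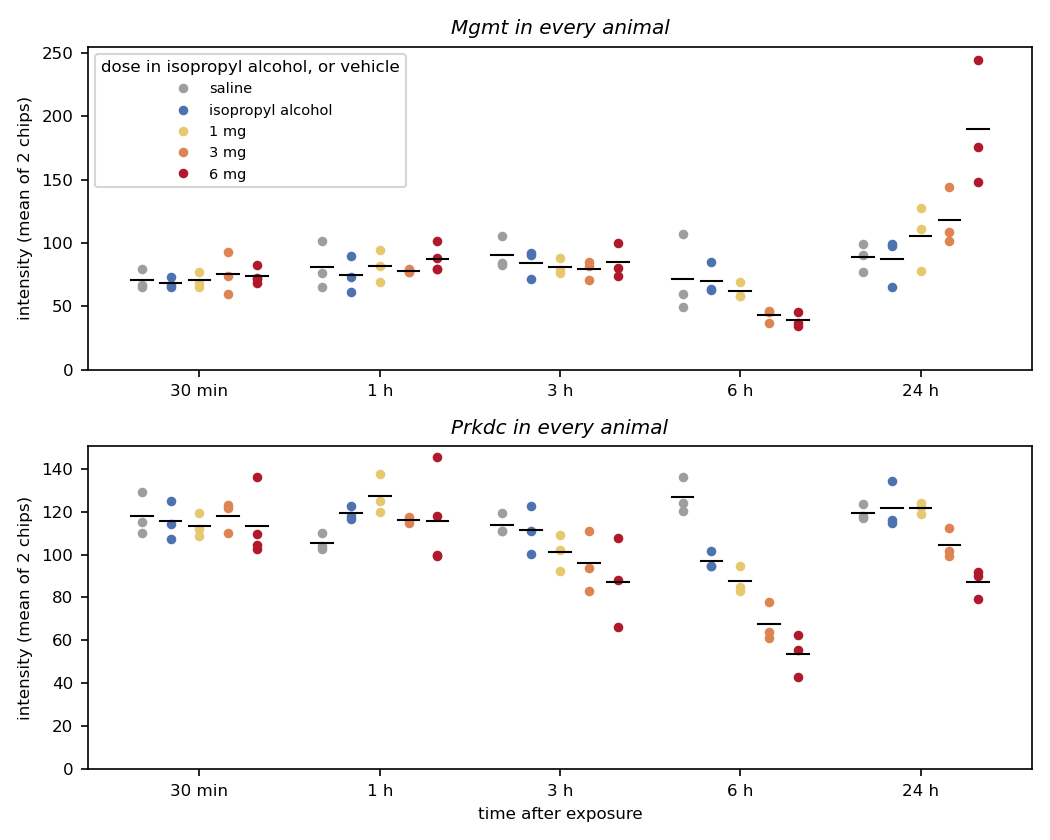
Intensity of Mgmt and of Prkdc in each of the 77 rats (points, mean of 2 chips; black bars are group means) by time, with saline, isopropyl alcohol, 1, 3 and 6 mg from left to right within each time. Mgmt is lowest in the 3 and 6 mg rats at 6 h and highest in the 6 mg rats at 24 h, while Prkdc falls with dose at 6 h.

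Prkdc (probe set 1389431_at, gene ID 360748) encodes the kinase that holds broken DNA ends together for joining. At 6 h it measured 62.3, 43.1 and 55.6 in the 6 mg rats, against 102, 94.8 and 94.9 in the isopropyl alcohol rats. The 1 mg rats had 85.1, 94.5 and 82.8 and the 3 mg rats 64.0, 60.9 and 78.0. Neither the 6 mg nor the 3 mg rats reached the isopropyl alcohol range, and the 3 mg range began inside the 6 mg range. The log2 fold change was -0.80 ± 0.12 at 6 mg (limma adjusted p = 6.81e-07) and -0.49 ± 0.12 at 3 mg (limma adjusted p = 0.0119, SE, n = 3 each). The trend over dose at 6 h was -0.13 ± 0.02 log2 per mg (limma adjusted p = 6.57e-08). The 3 mg call was lost without the first or second 3 mg rat (-0.46 and -0.43) or the first isopropyl alcohol rat (-0.46).

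At 6 h the isopropyl alcohol rats also lay below the saline rats for Prkdc, which had 124, 136 and 120.3, with no overlap. The isopropyl alcohol minus saline difference of -0.35 log2 did not pass over all probe sets (limma adjusted p = 0.235).

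At 24 h Prkdc was 79.3, 90.05 and 91.8 in the 6 mg rats and 134, 116 and 115 in the isopropyl alcohol rats. The groups did not overlap and the log2 fold change was -0.45 ± 0.12 (SE, n = 3 each, limma adjusted p = 0.0103). Without the first 6 mg rat it was -0.39, and without the first isopropyl alcohol rat -0.38, neither called. The trend at 24 h was -0.08 ± 0.02 log2 per mg (limma adjusted p = 0.00169). The 6 mg effect at 24 h minus that at 6 h was 0.35 ± 0.17 and did not pass (limma adjusted p = 0.305). At 3 h the values were 108, 88.0 and 66.1 in the 6 mg rats and 111, 123 and 100.5 in the isopropyl alcohol rats, so the groups overlapped. That difference was -0.34 ± 0.12 (limma adjusted p = 0.0418). It was -0.17 without the third 6 mg rat, -0.36 without the second, and -0.35 and -0.27 without the first and second isopropyl alcohol rats, called in none of these, nor with scan days as a block (-0.33, limma adjusted p = 0.0703). The trend at 3 h was -0.05 ± 0.02 log2 per mg (limma adjusted p = 0.0430), and was not called without the third 6 mg rat (-0.02) or with a block for scan days (limma adjusted p = 0.0627). Prkdc was the only member called among the 3 h trends, beside 12.2% of all probe sets.

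In base excision repair all 12 genes were tested. At 6 mg and 6 h Polb was higher and Parp1 lower, beside 7.18% and 11.1% of all probe sets. At 6 mg none of the 12 was called at 3 h, beside 3.86% and 9.09%, or at 24 h, beside 2.72% and 4.02%. Parp1 (probe set 1369969_at, gene ID 25591) measured 188, 202 and 176 in the 6 mg rats at 6 h, against 249, 281 and 261 in the isopropyl alcohol rats. The groups did not overlap, and the 3 mg rats (216, 256 and 227) lay between them with 1 rat inside the isopropyl alcohol range. The log2 fold change was -0.47 ± 0.12 (SE, n = 3 each, limma adjusted p = 0.00457) and the trend -0.08 ± 0.02 log2 per mg (limma adjusted p = 0.00129). The 6 mg call was lost with scan days as a block (-0.32, limma adjusted p = 0.0966) and in a fit on the 6 h groups alone (limma adjusted p = 0.0838). At 24 h the difference was -0.18, with a 95% interval of -0.43 to 0.07.

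Polb, the gap-filling polymerase, had 2 probe sets that moved apart. The brighter (1387142_at) had 117, 134 and 117 in the 6 mg rats at 6 h and 86.2, 89.0 and 106 in the isopropyl alcohol rats, a log2 difference of 0.36 ± 0.12 (SE, n = 3 each, limma adjusted p = 0.0288). The dimmer (1368341_at) had 35.6, 24.4 and 25.9 in the 6 mg rats, against 39.5, 39.1 and 58.4 in the isopropyl alcohol rats, a difference of -0.62 that did not pass (limma adjusted p = 0.164). The groups did not overlap on either probe set, in opposite directions, and the mean of both gave -0.13. The call was also lost without the second 6 mg rat (0.30) or the first or second isopropyl alcohol rat (0.31 and 0.33). On both probe sets the 6 mg rats overlapped the saline rats (87.2, 90.8 and 122 on the brighter, 57.8, 26.4 and 31.9 on the dimmer). No direction is given for the gene as a whole.

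The glycosylases Mpg, which takes out alkylated purines, Ogg1, Nthl1, Tdg and Ung, and the other members Apex1, Fen1, Lig1, Parp2 and Xrcc1 were not called at any dose or time. For Mpg the 6 mg difference was -0.22 at 6 h (95% interval -0.57 to 0.13) and 0.33 at 24 h (95% interval -0.02 to 0.69). Ogg1, which removes oxidised guanine, had 78.6, 81.6 and 79.5 in the 6 mg rats at 6 h and 77.9, 82.8 and 88.3 in the isopropyl alcohol rats. These groups overlapped almost wholly, with a 95% interval for the log2 difference of -0.34 to 0.23. Xrcc1, the scaffold that Parp1 recruits, overlapped as well, with 161, 163 and 183 in the 6 mg rats, against 199, 199 and 107 in the isopropyl alcohol rats. The intervals at 6 h were -0.23 to 0.18 for the ligase Lig1 and -0.06 to 0.45 for Parp2, a second strand-break sensor. Fen1, the flap nuclease, had 85.4, 71.4 and 78.7 in the 6 mg rats, against 47.6, 56.0 and 74.5 in the isopropyl alcohol rats, with overlap and no call (0.39, limma adjusted p = 0.214). For Apex1 at 6 h the 6 mg rats had 221, 246 and 258, against 190.0, 195 and 186 in the isopropyl alcohol rats. They did not overlap, and the difference of 0.33 fell short of the threshold (limma adjusted p = 0.0690). Ung at 24 h had 50.9, 50.7 and 41.4 in the 6 mg rats, against 65.6, 71.6 and 61.3 in the isopropyl alcohol rats, again without overlap and without a call (-0.44, limma adjusted p = 0.161). The saline rats of 24 h had the lowest Ung mean of the 25 groups, 43.7. How many of all probe sets lacked overlap was not counted.

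In nucleotide excision repair 8 of the 9 genes were tested and none was called at 6 mg at 3, 6 or 24 h. These were Xpc, Rad23b, Ddb1 and Ddb2, which recognise damage, the TFIIH subunits Ercc2, Ercc3 and Gtf2h1, and Ercc1, a subunit of the nuclease that cuts on one side of the lesion. Ddb2 and Xpc are known targets of p53 in human cells. At 24 h Ddb2 had 41.3, 49.7 and 54.2 in the 6 mg rats, against 51.5, 47.8 and 48.0 in the isopropyl alcohol rats, a difference of -0.03 with a 95% interval of -0.37 to 0.31. Xpc had 209.6, 245 and 243 in the 6 mg rats, against 227, 266 and 279 in the isopropyl alcohol rats, a difference of -0.14 with an interval of -0.51 to 0.23. Both genes thus overlapped their isopropyl alcohol values at 24 h. At 6 h the intervals were -0.41 to 0.27 for Ddb2 and -0.25 to 0.50 for Xpc. A dimmer Ddb2 probe set (1394117_at) was below the filter. Fitted without the filter, it differed at 6 h by 0.54, 0.62 and 0.49 at 1, 3 and 6 mg. None of these was called (limma adjusted p = 0.997, 0.454 and 0.230). Of the others at 6 h, Ercc1 differed by 0.16, Ercc2 by 0.04, Ercc3 by 0.12, Ddb1 by 0.06 and Rad23b, the partner of Xpc, by 0.03. A dimmer Ddb1 probe set (1398881_at), also below the filter, differed at 6 mg by -1.17 at 3 h and -0.90 at 6 h. Neither was called (limma adjusted p = 0.0562 and 0.141). At 24 h in the same 6 mg rats Cdkn1a, the p53-driven cell cycle inhibitor, rose by 3.88 log2, Ccng1 by 2.89 and Mdm2 by 2.26 (limma adjusted p = 1.21e-10, 3.92e-16 and 4.08e-08).

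Gtf2h1 (probe set 1373094_at) had 168, 159 and 189.8 in the 6 mg rats at 6 h, against 122, 118 and 141 in the isopropyl alcohol rats, with no overlap. The 6 mg difference of 0.42 did not pass (limma adjusted p = 0.0703), but the trend did, at 0.07 ± 0.03 log2 per mg (limma adjusted p = 0.0496), a call lost in 11 of 15 alternatives. Its 1 mg rats had 123, 141 and 136 and its 3 mg rats 152, 131 and 132.

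Replication protein A coats single-stranded DNA during repair and replication. None of its 3 subunits was called at a dose, at any time. Rpa1 (probe set 1372181_at) had 122, 97.3 and 102 in the 6 mg rats at 6 h, against 130.2, 146 and 127 in the isopropyl alcohol rats, without overlap. Its trend at 6 h was -0.06 ± 0.02 log2 per mg (limma adjusted p = 0.0427), a call lost in 8 alternatives. In all, 6 of 30 members were called in the trend at 6 h (Polb and Gtf2h1 upward, Mgmt, Parp1, Prkdc and Rpa1 downward), beside 20.4% of all probe sets. At 24 h the trend called 2 of 30 members, Mgmt and Prkdc, beside 8.11%. Rpa2 differed from isopropyl alcohol by 0.42 at 6 h and 0.33 at 24 h and Rpa3 by 0.07 and -0.25 at 6 mg, and none of these passed. Pms2, the one mismatch repair member measured, differed by 0.16 at 6 h and 0.07 at 24 h.

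**Figure D3:**
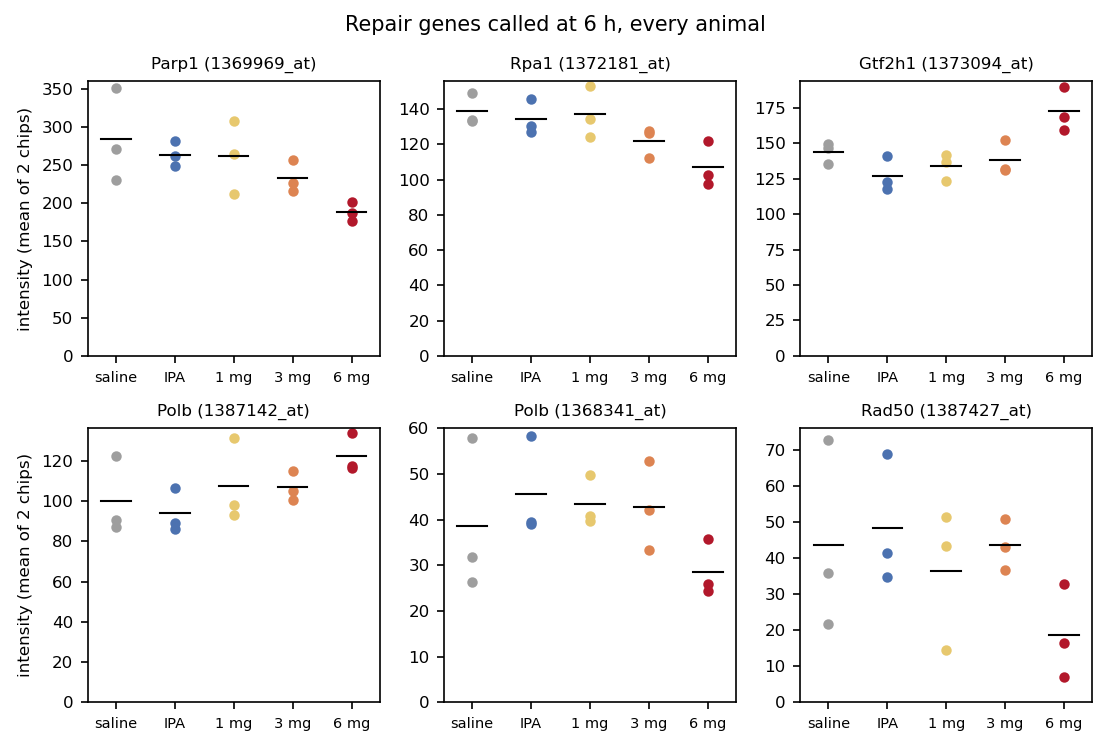
Intensity at 6 h of the remaining members called at that time, for saline, isopropyl alcohol (IPA), 1, 3 and 6 mg (points are rats, mean of 2 chips; black bars are group means of 3; axes start at 0), with both probe sets of Polb. The 6 mg rats lie below all isopropyl alcohol rats for Parp1, Rpa1, Rad50 and the dimmer Polb probe set, and above them for Gtf2h1 and the brighter one.

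Of the 9 double-strand break genes 5 were tested. Rad50, which tethers broken ends in the complex with Mre11 and Nbn, had 7.1, 33.0 and 16.4 in the 6 mg rats at 6 h and 41.6, 34.8 and 69.0 in the isopropyl alcohol rats. The nearest values of the groups, 33.0 and 34.8, almost met, and the saline rats, at 73.0, 21.9 and 36.0, overlapped the 6 mg rats. The log2 fold change was -1.20 ± 0.43 (SE, n = 3 each, limma adjusted p = 0.0446), and it was called in 7 of 20 alternatives. It lay at -0.84 without the first 6 mg rat, whose 7.1 is close to the offset, and at -0.94 without the third isopropyl alcohol rat. With 1 mg at 3 h Rad50 had 18.6, 21.8 and 25.8, against 60.3, 52.0 and 56.5 in the isopropyl alcohol rats, a difference that did not pass (-1.14, limma adjusted p = 0.422). Rad50 was the noisiest tested member, with a within-group SD of 0.55 log2, whereas the other 29 stayed under 0.3. Nbn differed by -0.05 at 6 h and -0.03 at 24 h, Xrcc5 by -0.23 and -0.13, and Xrcc6 by 0.13 and -0.14 at 6 mg, and none passed. Prkdc thus fell while the genes of both Ku proteins, its partners in end joining, were not called. The 95% intervals at 6 h were -1.03 to -0.56 for Prkdc, -0.51 to 0.04 for Xrcc5 and -0.19 to 0.46 for Xrcc6. Without the filter, Brca1, Brca2 and Mre11 had 6 mg differences of -0.27, -0.42 and -0.16 at 6 h, none of them called.

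Apart from Prkdc with 3 mg at 6 h, no member was called at a dose under 6 mg or before 3 h. At 30 min 0% of all probe sets passed at 1, 3 and 6 mg. At 1 h the shares were 0% with 1 mg, 0% with 3 mg and 0.198% with 6 mg. At 3 h they were 0.018% with 1 mg and 0% with 3 mg. The 1 mg dose called 0.009% of all probe sets at 6 h, and 24 h had 0.333% with 1 mg and 0.513% with 3 mg. The dose trends called no member at 30 min or 1 h (0% and 0.486% of all probe sets). Isopropyl alcohol against saline called none at any time, beside 0.036% of all probe sets (30 min), 0% (1 h), 0.009% (3 h), 0.018% (6 h) and 0% (24 h). At an unadjusted p under 0.05, 4 members differed between isopropyl alcohol and saline at 6 h and 3 at 24 h, beside 11.4% and 2.84% of all probe sets. At the same level 6 mg gave 2 members at 30 min and 0 at 1 h, beside 5.29% and 13.5%.

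Repair genes outside these 36 were counted for comparison: of 130 listed, 56 were tested. At 6 mg and 6 h, 7 were higher and 3 lower, beside 7.18% and 11.1% of all probe sets. H2ax, the histone phosphorylated at breaks, had 139, 204 and 263 in the 6 mg rats, against 72, 101 and 59.0 in the isopropyl alcohol rats (log2 1.29 ± 0.27, limma adjusted p = 0.00037). Pcna, the replication clamp, had 886, 1033 and 845 in the 6 mg rats, against 467, 506 and 474 in the isopropyl alcohol rats (log2 0.92 ± 0.19, limma adjusted p = 0.000231). The other 5 higher genes were Tdp2 (0.80), which frees proteins from DNA ends, Usp1 (0.75), which deubiquitinates Fancd2 and Pcna, Ccnh (0.62), of the TFIIH kinase, Ube2v2 (0.58) and Ube2b (0.37). In none of these 7 did the 6 mg rats overlap the isopropyl alcohol rats. That adds no support, since the same comparison called them. Without the second 6 mg rat 4 were higher. The 3 lower genes at 6 h were Parg (-0.68), which removes the ADP-ribose chains that Parp1 makes, Mnat1 (-0.65), the partner of Ccnh, and Rfc1 (-0.55). Mnat1 had 63.9, 66.8 and 66.5 in the 6 mg rats and 108, 104 and 109 in the isopropyl alcohol rats. For 3 of these 10 genes the 6 mg rats overlapped the saline rats of 6 h. The saline rats had 70.2, 190.3 and 157 for H2ax, 178, 123 and 243 for Ccnh, and 150.1, 117 and 120 for Parg, for which the 6 mg rats had 137, 114 and 97.6 and the isopropyl alcohol rats 181, 180 and 207.

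At 3 h 3 of the 56 were higher and 6 lower at 6 mg, beside 3.86% and 9.09% of all probe sets. H2ax (1.18), Pcna (0.73) and Rfc3 (0.56) rose, and Rev3l (-1.14), the catalytic subunit of translesion polymerase zeta, Mnat1 (-0.69), Mutyh (-0.66), Pold3 (-0.61), Parg (-0.58) and Rev1 (-0.42) fell. The third 6 mg rat, with 314 for H2ax, 1431 for Pcna and 70.4 for Rev3l, was the most extreme of its group each time. Without it 0 were higher and 1 was lower. This rat also had low array medians, 67.7 and 68.6. At 24 h Rev1 was higher (0.49) and Pold1 lower (-0.54), beside 2.72% and 4.02% of all probe sets, and each of these calls was lost under several other settings. H2ax at 24 h had 98.7, 99.95 and 60.4 in the 6 mg rats, against 129.8, 76.0 and 67.7 in the isopropyl alcohol rats, an overlap. Its 6 mg effect at 24 h minus that at 6 h was -1.34 log2 and that of Parg 0.80, the only calls in this difference among the 56.

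**Figure D4:**
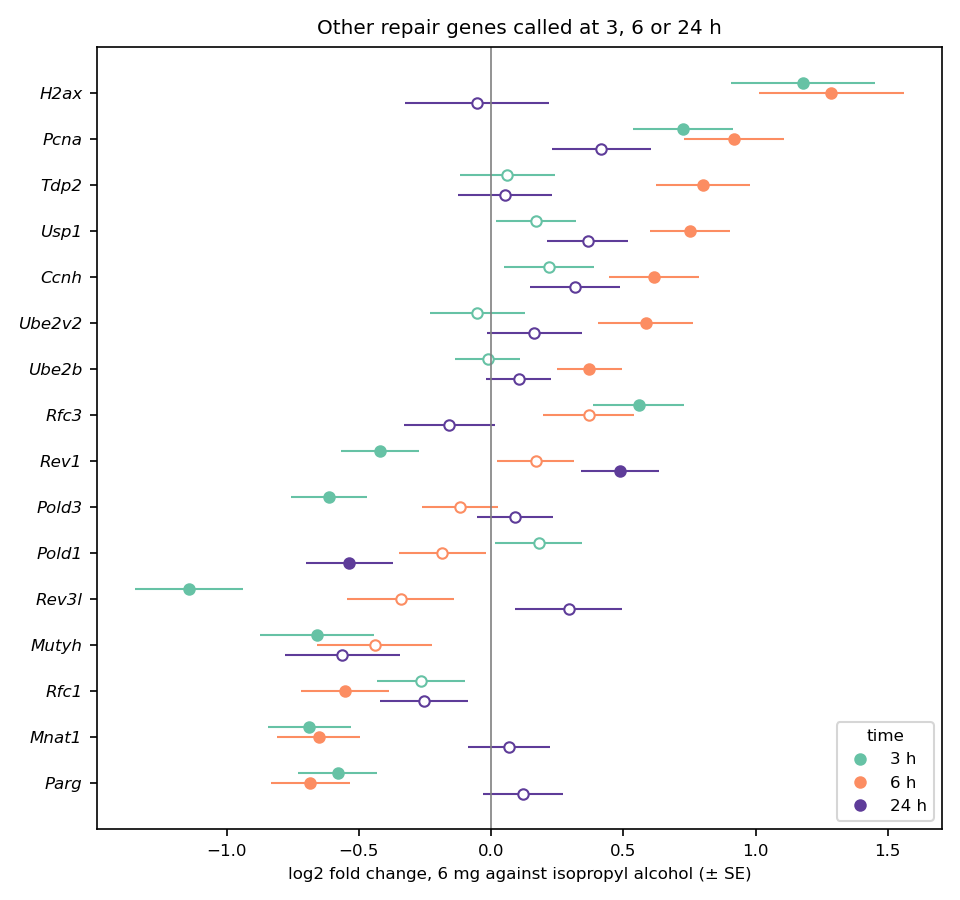
Log2 fold change (± SE, n = 3 each) at 6 mg against isopropyl alcohol for the 16 further repair genes called at 3, 6 or 24 h; filled points have an adjusted p under 0.05 and open points do not. H2ax and Pcna are highest at 6 h with 1.29 and 0.92, and Rev3l at 3 h is lowest with -1.14.

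Other measures moved with these results, and their part in them was not tested. As a background to the counts, 3.86% of all probe sets were higher and 9.09% lower with 6 mg at 3 h. These shares were 7.18% and 11.1% at 6 h, and 2.72% and 4.02% at 24 h. Of 8 p53 targets tested, 5 were higher with 6 mg at 3 h, again 5 after 6 h, and 6 after 24 h. Of 16 proliferation genes tested, 0 were higher and 3 lower at 6 h (Top2a by -0.73) and 3 lower at 24 h, while Mki67 was not called at either time. At 24 h 8 of 9 T and NK cell markers tested were lower (Cd3d by -1.67 and Nkg7 by -1.19), and the summed intensity of 12 such markers was 257 to 355 in the 6 mg rats, against 772 to 854 in the isopropyl alcohol rats. Of 6 smooth muscle markers 4 were lower at 24 h (Myh11 by -1.02), with sums of 1221 to 1630 in the 6 mg rats and 2023 to 2576 in the isopropyl alcohol rats. At 6 h, when Prkdc was lowest, 1 of the 9 T and NK markers was lower and the sums were 512 to 626 in the 6 mg rats and 757 to 910 in the isopropyl alcohol rats. No marker of either list was under the offset of 7 in all these rats. The only B cell marker measured, Cd79b, was lower at 6 h (-0.99) and at 24 h (-2.09). At 24 h Cd79b had 2.35 to 6.55 in the 6 mg rats and 23.1 to 70.9 in the isopropyl alcohol rats. Every 6 mg rat was then under the offset of 7, so the size of that difference depends on the offset. Of 5 endothelial markers, 1 was higher and 2 lower at 6 h (Kdr by -0.82), and 2 were lower at 24 h (Kdr by -0.69 and Vwf by -0.69). Their sums overlapped at 6 h, and at 24 h were 4213 to 4623 in the 6 mg rats and 5136 to 6427 in the isopropyl alcohol rats. The 2 macrophage markers summed to 673 to 764 in the 6 mg rats at 6 h, against 815 to 842 in the isopropyl alcohol rats, and 1 of them was lower. At 24 h these sums were 577 to 750 in the 6 mg rats and 774 to 808 in the isopropyl alcohol rats. The 5 alveolar type I markers summed to 8189 to 8883 in the 6 mg rats at 24 h, against 9082 to 10752 in the isopropyl alcohol rats, and 1 of them, Aqp5, was lower (-0.93). Sums of alveolar type II, club, neutrophil and cardiac muscle markers overlapped between these groups at 6 and 24 h. At 6 h the type II sums were 18372 to 25479 in the 6 mg rats, against 17755 to 18464.5 in the isopropyl alcohol rats. Club sums were 5940 to 9819 against 5200 to 5952, and neutrophil sums 1500 to 2084 against 1073 to 1669. Cardiac muscle sums were 838 to 1521 against 950 to 1282.

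RNA integrity was read from the 3 to 5 prime log2 ratio of beta-actin, which is higher in degraded RNA. At 6 h it was 1.64 ± 0.27 in the 6 mg rats and 0.73 ± 0.30 in the isopropyl alcohol rats (SD, n = 3 each, exact permutation p = 0.1, two-sided, the smallest p that 3 against 3 allow). At 24 h it was 1.45 ± 0.58 in the 6 mg rats and 0.85 ± 0.28 in the isopropyl alcohol rats (exact permutation p = 0.2). With this ratio and that of Gapdh as covariates the 6 mg differences were -0.87 for Prkdc, -0.70 for Mgmt and -0.37 for Parp1 at 6 h, and 1.03 for Mgmt at 24 h, and these 4 were still called. Under the same covariates Rad50 was -0.69 (limma adjusted p = 0.214) and the brighter Polb probe set 0.27 (limma adjusted p = 0.119) at 6 h, and neither was called.

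Chips were scanned on 17 days. All 6 mg rats of 6 h were scanned on days 9 and 10, which held no isopropyl alcohol rat of 6 h or of any other time. A block for the days can therefore join them to isopropyl alcohol rats only through saline and dosed rats. With the days as a block, the 6 mg differences at 6 h were -0.81 for Prkdc and -0.64 for Mgmt, both called, whereas Parp1 was not called. Rad50 and the brighter Polb probe set were not called either (-0.88 and 0.23). On those same 2 days the saline rat of 6 h had 120.3 for Prkdc, the 1 mg rat 82.8 and the 3 mg rat 78.0, all above the 6 mg values of 43.1 to 62.3. For Mgmt these rats had 59.5, 58.5 and 46.5, and the 6 mg rats 34.4 to 46.0. At 24 h the days held in common by 1 rat of each group gave 0.58 for Mgmt and -0.69 for Prkdc. With the block these were 1.16 and -0.47, both called. For Prkdc at 3 mg and 6 h the rat pair scanned together gave -0.68, and at 6 mg and 3 h the 2 shared pairs of days gave -0.30 and -0.23.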

How the data were processed

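Lung RNA of 77 rats was measured on rat expression arrays, 2 chips a rat (154 arrays of 15923 probe sets). The deposited values are intensities, 1 per probe set and array. Tested on the files, each array had the same mean after 2% was trimmed at either end, so the authors had scaled the arrays before they deposited them. The program that summarised the probes is not given in the sources used here. A number of arrays, and no sequencing depth, limits the precision.

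Values were averaged over each rat's chips A and B and used as log2(intensity + 7). The 57 control probe sets and the lowest 30% by mean value were left out. The 11106 probe sets left were fitted over all 25 groups together with limma 3.58.1 (lmFit, eBayes; R 4.3.3), Benjamini-Hochberg adjustment over all of them and a threshold of 0.05. Dose trends used 0, 1, 3 and 6 mg. Where a gene had several probe sets, the one with the highest mean was used. The labels name separate rats. The procedure was tested on simulated data. Small group values were compared by exact permutation with SciPy 1.17.1 (Python 3.11.15).

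Of the probe sets, 12783 had 1 gene symbol, 312 several and 2771 none. For 12748 of those with 1 symbol the gene ID matched a current RefSeq gene. Genes were picked by the symbol originally assigned, which was not updated. Promoter windows came from RefSeq, assembly GRCr8. Members called in a dose comparison or trend are described with each rat's values; other members given rat by rat were picked after their values were seen. Other repair genes named are those called at 6 mg at 3, 6 or 24 h, up to 4 per list and time, which took in all 16 called. The members and the lists were chosen with earlier results of these data known. Alternatives were other offsets, filters, scalings, single chips, weights, blocks, covariates, fewer groups and each rat left out. The alternatives for the other repair genes were chosen after seeing the data.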

Additional observations from a re-analysis of the deposited data

Results flagged for a closer look

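In the 2 groups of 4 rats, 66 combinations of member and group were examined for a rat far from the others, where chance gives about 1 in 20, and 6 were found. Of these, 5 were the same rat, the second given 6 mg at 30 min, and the gap to its nearest neighbour took up most of the group's range: 0.916 of it for Rpa3 (174 against 101, 106 and 106), 0.864 for Rad50 (31.2 against 60.6, 55.2 and 57.8), 0.850 for Tdg (100.4 against 136, 144 and 141), 0.845 for Rad23b (542 against 418, 417 and 398) and 0.835 for Fen1 (51.8 against 65.2, 66.9 and 65.5). This rat's log2 3 to 5 prime ratios, 0.68 for Gapdh and 0.65 for actin, were above those of the other 3 rats (up to 0.40 and 0.41), and their part in the values was not tested. In the 6 mg group at 1 h the value was 0.921 for Nbn, with 117 in the third rat against 125, 125 and 126.

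The 6 mg effect differed between times for 2 members. Over the 5 times limma's F-test gave an adjusted p of 3.82e-05 for Mgmt and 0.00216 for Prkdc, and the Mgmt effect at 24 h exceeded that at 6 h by 1.81 log2.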

How the results depend on the processing

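Of 528 recalculated counts of called members, 471 stayed within 1.5 times the count reported, and 20 of 30 counts did so throughout. Of those 20, 18 are counts of 0, which say little about stability, and of the 10 counts above 0 only the trend at 24 h and the effect at 24 h minus that at 6 h did not move. For the others the cause was not tested. The 1 member lower at 6 mg and 3 h (Prkdc) became 0 with no filter, quantile normalization, median centring, chip A alone, array weights, scan days as a block or only the groups of that time, and 0 to 2 without 1 rat. The 1 lower at 3 mg and 6 h became 0 on chip A or with only the groups of that time, 2 with array weights or without scan days 13 and 14, and 0 to 1 without 1 rat. The 1 higher at 6 mg and 6 h (Polb) became 3 with median centring, 2 on chip A or without scan days 13 and 14, 5 with array weights, 0 on chip B, with scan days as a block, 3 to 5 prime ratios as covariates or the mean of probe sets, and 0 to 1 without 1 rat; the mean of probe sets turned Polb to -0.13. The 4 lower there became 2 with the stricter filter, on chip B, with scan days as a block or only the groups of that time. At 6 mg and 24 h the 1 higher (Mgmt) became 0 with the stricter filter, which left Mgmt out, and the 1 lower (Prkdc) became 0 on chip A and 0 to 1 without 1 rat. The trend at 3 h went to 0 with no filter, quantile normalization or scan days as a block, and 0 to 1 without 1 rat; that at 6 h (6 members) to 3 with no filter and 3 to 7 without 1 rat. Isopropyl alcohol against saline gave 0 to 1 without 1 rat at 6 h and 0 to 1 at 24 h.

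Prkdc at 6 mg and 6 h was called under every alternative run, with -0.90 to -0.67 without 1 rat. Mgmt at 24 h gave 0.87 to 1.21, and Mgmt at 6 h gave -0.88 to -0.63 and lost its call only on chip B. Rad50 lost its call in 13 of 20 alternatives. Of the other repair genes at 6 mg and 6 h, array weights called 12 higher and 5 lower. Median centring moved the calls over all probe sets to 666 higher and 637 lower at 6 mg and 3 h, 1015 and 1002 at 6 h, and 310 and 386 at 24 h, with 3 members higher and 3 lower at 6 h. With chips A and B as separate arrays and the chip letter as a replicate block, Mgmt at 24 h was 1.06 and the counts at 6 mg stayed at 1 higher and 4 lower at 6 h and 1 and 1 at 24 h. The chips of a rat are paired by label, and no fit used another pairing. The number of arrays, 3 or 4 rats a group, limits what small differences can show, and no pair of scan days held both a 6 mg and an isopropyl alcohol rat of 6 h. The note on 1 chip of the third 6 mg rat of 6 h names another rat's chip, but it correlated at 0.972 with its own pair and 0.944 with the other's.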

Other observations

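Pms2 at 6 h had 116, 422 and 98.1 in the saline rats, so that the second rat stood far above the others of its group. Groups of 3 were not examined for outliers, and the value is given without a test.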
